A study of Homo sapiens with 4 samples.

Results

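The genes described here encode the subunits of nicotinic acetylcholine receptors, of GABA-A and GABA-B receptors, of glycine receptors, and of ionotropic and metabotropic glutamate receptors. Members were matched by gene symbol, and 68 of the 26364 listed genes matched. The rule uses no measured value, but it was written with earlier results of these data known. RNA-seq was carried out in BE(2)C, a clonal human neuroblastoma cell line with amplified MYCN, so all samples come from 1 clone. The 2 Ctrl samples received a non-targeting control siRNA and the 2 MYCN KD samples an siRNA against MYCN, both with Lipofectamine 2000. Per the labels the siRNA was used at 80 nM for 6 h and total RNA was taken the next day, whereas the methods of the study give a lower final concentration. The comparison asks which receptor subunit genes differ in expression after MYCN knockdown.

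Fast receptors for acetylcholine, GABA and glycine are rings of related subunits around an ion channel, and the choice of subunits sets which ions pass, how long the channel opens and which drugs bind. Ionotropic glutamate receptors are likewise assembled from subunits of the AMPA, kainate, delta and NMDA families, whereas GABA-B and metabotropic glutamate receptors signal through G proteins. Neuroblastoma arises from the sympathetic lineage, in which ganglionic nicotinic receptors receive the input from the spinal cord.

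The values are RPKM, reads scaled to gene length and to the total of mapped reads, and can be compared between genes. The total of reads behind the samples was inferred from the values of small RNA genes with known length. It was 34142988 and 31976939 in Ctrl against 29055819 and 30941778 in MYCN KD. For MYCN KD replicate 1 another total had 284 matches against 283 for the one used. Reads per gene, voom and counting intervals rest on these totals. The targeted gene MYCN had RPKM values of 1068 and 1073 in Ctrl against 720.2 and 718.0 in MYCN KD, so the knockdown was partial (log2 fold change of -0.57, SE 0.029, limma adjusted p = 0.00361). All 12 sympathetic neuroblast markers had a mean RPKM at or above 1, against 4 of 10 mesenchymal, 2 of 8 Schwann and glial, 0 of 10 skeletal muscle and 1 of 8 blood and endothelial markers. The 2 samples of a group are biological replicates by the methods of the study, but nothing states that they came from separate days, and p-values measure the spread between these samples only. Unwanted variation had been removed from the values before deposit, so that spread, and every p-value given here, may be too small.

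Promoter windows were read for the 3 most abundant members that passed the test, CHRNA3, CHRNB4 and CHRNB2, and for CHRNA7, the one member that passed it with the sequence CACGTG in its window. CACGTG is the canonical E-box bound by MYC proteins and CANNTG is the general E-box. Each of these motifs was searched on both strands, and every CACGTG is also counted as a CANNTG. Each line gives a RefSeq window on GRCh38.p14 from 250 bases before to 50 bases after the annotated start, 5′ to 3′ on the strand of the gene, with every CANNTG in capitals. CHRNA3 lies on the minus strand at chr15:78620947-78621246, CHRNB4 on the minus strand at chr15:78641161-78641460, CHRNB2 on the plus strand at chr1:154567528-154567827 and CHRNA7 on the plus strand at chr15:32030233-32030532.
CHRNA3: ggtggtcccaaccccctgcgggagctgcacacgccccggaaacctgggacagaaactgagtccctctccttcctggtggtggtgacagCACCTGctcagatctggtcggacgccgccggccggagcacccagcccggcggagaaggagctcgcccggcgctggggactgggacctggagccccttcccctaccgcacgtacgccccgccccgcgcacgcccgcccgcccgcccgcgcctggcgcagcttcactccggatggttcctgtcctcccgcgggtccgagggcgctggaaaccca
CHRNB4: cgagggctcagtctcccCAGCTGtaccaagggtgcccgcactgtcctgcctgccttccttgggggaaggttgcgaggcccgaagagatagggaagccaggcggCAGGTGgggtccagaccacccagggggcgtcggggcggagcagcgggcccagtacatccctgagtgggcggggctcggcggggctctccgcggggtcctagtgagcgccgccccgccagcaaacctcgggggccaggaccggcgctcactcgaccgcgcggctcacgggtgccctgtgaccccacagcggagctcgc
CHRNB2: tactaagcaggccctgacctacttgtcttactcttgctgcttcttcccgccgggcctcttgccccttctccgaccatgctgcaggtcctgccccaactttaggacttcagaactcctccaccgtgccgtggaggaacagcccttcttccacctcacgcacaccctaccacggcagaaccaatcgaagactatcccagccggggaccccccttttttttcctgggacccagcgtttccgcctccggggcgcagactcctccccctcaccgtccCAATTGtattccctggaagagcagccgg
CHRNA7: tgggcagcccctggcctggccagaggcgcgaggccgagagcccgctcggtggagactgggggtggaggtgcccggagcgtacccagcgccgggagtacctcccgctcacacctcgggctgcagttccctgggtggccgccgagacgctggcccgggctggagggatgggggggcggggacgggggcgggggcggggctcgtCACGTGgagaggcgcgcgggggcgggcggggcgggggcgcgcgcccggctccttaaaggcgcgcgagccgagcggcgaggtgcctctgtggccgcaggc

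The window of CHRNA3 held CACCTG at position -162 from the start, that of CHRNB4 held CAGCTG at -233 and CAGGTG at -147, that of CHRNB2 held CAATTG at 22, and that of CHRNA7 held CACGTG at -49. Of the 68 members, 48 had a window, with 68 windows in all. CACGTG was present in 4 of these windows (5.88%), from CHRNA7, GRM4 and GRM5, and in 7.26% of the 35116 windows of all genes. CHRNA7 had a second window from another annotated start, not printed here. It overlaps the printed one and holds the same CACGTG at -81, so that site is counted again. CANNTG was present in 48 of the 68 member windows (70.6%) and in 68.7% of all windows. These are descriptions of letters in a window and say nothing about binding.

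Most receptor subunit genes were silent or close to it in BE(2)C cells. The nicotinic, GABA-A, AMPA, kainate, delta and NMDA families each had a member with enough expression to be tested. Of the 68 members, 6 were listed at 0 in all 4 samples, 34 were above 0 with a mean RPKM under 0.1, 11 had a mean from 0.1 to under 1, and 17 had a mean of at least 1 and were tested. CHRNB1 was the lowest of the tested members with a mean of 1.33, and its 2 Ctrl values were below 1. It therefore passed the filter through the MYCN KD samples. GRIA1 was the first member outside the filter with a mean of 0.579.

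**Figure D1:**
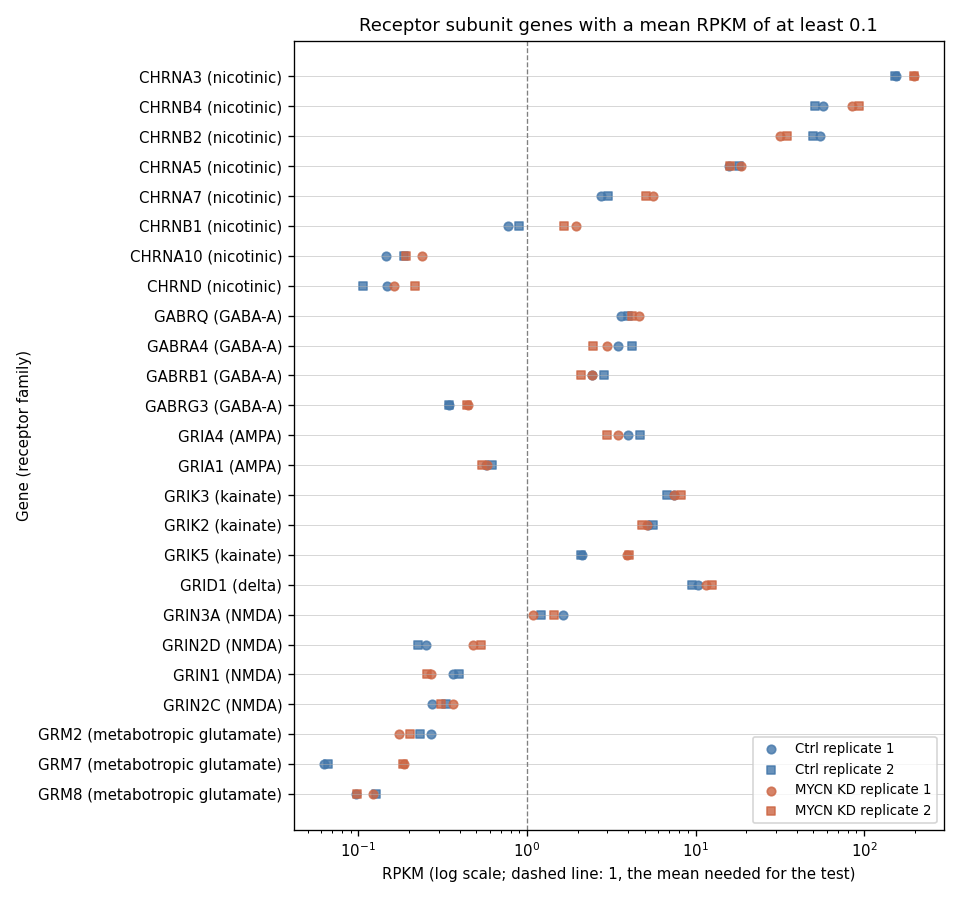
RPKM (log axis) of the receptor subunit genes reported here with a mean RPKM at or above 0.1, 1 point per sample, with circles for replicate 1 and squares for replicate 2 of Ctrl (blue) and MYCN KD (orange). CHRNA3, CHRNB4 and CHRNB2 stand above all other genes in every sample. The dashed line marks an RPKM of 1, the mean needed for the test.

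Nicotinic receptor genes made up most of the receptor subunit expression. Their summed RPKM was 285.4 and 277.1 in Ctrl against 340.0 and 349.6 in MYCN KD, which was 82.6%, 81.3%, 83.7% and 84.7% of the sum over the 68 members. GABA-A receptor genes came next with sums of 27.36, 31.67, 30.98 and 26.98 RPKM, followed by the kainate family with 14.93, 14.57, 16.61 and 17.11. The delta family summed to between 9.501 and 12.45 RPKM, the AMPA family to between 3.555 and 5.355 and the NMDA family to between 2.197 and 2.565. The metabotropic glutamate, GABA-B and glycine receptor genes each summed to less than 1 RPKM in every sample, with at most 0.54, 0.0632 and 0.0548.

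Of the 17 tested members, 5 rose and 1 fell after MYCN knockdown, with an adjusted p under 0.05 (limma, Benjamini-Hochberg). The higher genes were CHRNA3, CHRNB4, CHRNA7, CHRNB1 and GRIK5, and the lower gene was CHRNB2. CHRNB1 entered this count and its share only through its MYCN KD values, which lifted its mean past the filter. The share of higher members was 29.4% against 25.3% of all 11411 tested genes, and the share of lower members was 5.88% against 22.8%. With only 17 members, the share of higher members was near the background. Quantile normalization moved the split to 5 higher and 5 lower members, 29.4% each against 25.4% and 26.2% of all genes, so the gap on the lower side was not present under that scaling. Both MYCN KD values were above both Ctrl values for 7 members, where the background was 40.4% of tested genes, and below them for 4 members, where it was 35.8%. The median log2 fold change was 0.12 over the tested members and 0.03 over all tested genes. All fold changes of tested members are on the log2(RPKM + 1) scale, which understates the change of low genes.

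**Figure D2:**
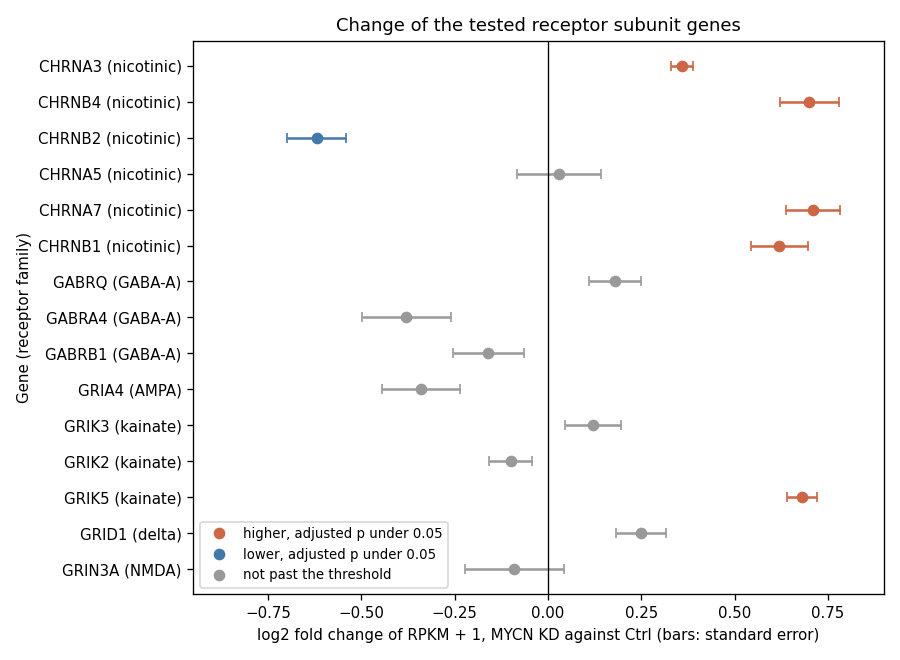
log2 fold change of RPKM + 1 in MYCN KD against Ctrl for the tested receptor subunit genes reported here, with bars for the standard error and 2 samples per group. CHRNA3, CHRNB4, CHRNA7, CHRNB1 and GRIK5 are past the threshold on the higher side, CHRNB2 alone is past it on the lower side, and no GABA-A, AMPA, delta or NMDA gene is past it.

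The ganglionic nicotinic subunit genes CHRNA3 and CHRNB4 rose, while CHRNB2, the beta subunit most widespread in brain nicotinic receptors, fell. CHRNA3 encodes the alpha subunit that defines the receptor of autonomic ganglia, and it was the most abundant member in every sample. Its RPKM was 154.5 and 153.4 in Ctrl against 196.9 and 198.3 in MYCN KD. The replicates lay close together and the groups did not overlap (log2 fold change 0.36, SE 0.0296, adjusted p = 0.00578). The group means were 154.0 ± 0.784 and 197.6 ± 0.991 (SD, n = 2 each), a ratio of 1.28, and each sample had at least 17442 reads on the gene.

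CHRNB4 encodes the beta subunit that pairs with CHRNA3 in ganglia. Its RPKM was 56.7 and 51.4 in Ctrl against 84.6 and 92.9 in MYCN KD, with 4738, 4027, 6017 and 7036 reads. Both MYCN KD samples were above both Ctrl samples, with a mean of 88.7 against 54.1, a ratio of 1.64 (log2 fold change 0.70, SE 0.0787, adjusted p = 0.00897).

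CHRNB2 went the other way. Its RPKM was 54.5 and 49.5 in Ctrl against 31.9 and 35 in MYCN KD, from 5293 to 10642 reads. The groups did not overlap, and the mean of 33.4 in MYCN KD was 0.643 of the 52.0 in Ctrl (log2 fold change -0.62, SE 0.0788, adjusted p = 0.0112). The levels of both beta subunit genes were nearly equal in Ctrl, so the ratio of CHRNB4 to CHRNB2 within a sample was 1.04 and 1.04 in Ctrl against 2.66 and 2.65 in MYCN KD. An exact permutation test of this ratio gave p = 0.3333, the smallest value that 2 against 2 samples allow. It was chosen after the values of the genes were seen.

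**Figure D3:**
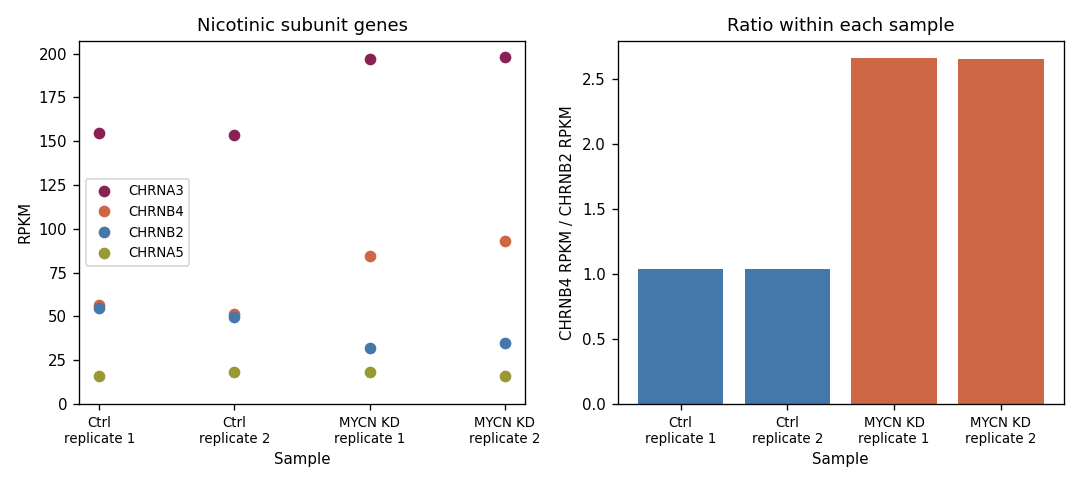
RPKM of the 4 most abundant nicotinic subunit genes in each sample (left) and the ratio of CHRNB4 to CHRNB2 RPKM in each sample (right, bars from 0). CHRNB4 and CHRNB2 coincide in Ctrl and separate in MYCN KD, where the ratio is 2.66 and 2.65 against 1.04 in both Ctrl samples.

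CHRNA5 encodes an accessory subunit that joins receptors made of CHRNA3 or other alpha subunits with a beta subunit. Its RPKM was 15.7 and 18.2 in Ctrl against 18.5 and 16.1 in MYCN KD. The groups overlapped, and the log2 fold change of 0.03 (SE 0.112, adjusted p = 0.856) had a 95% interval from -0.30 to 0.36. The ratio of CHRNA3 to CHRNA5 was 9.85 and 8.42 in Ctrl against 10.6 and 12.3 in MYCN KD.

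CHRNA7 encodes the subunit of the homomeric, calcium-permeable nicotinic receptor that binds alpha-bungarotoxin. Its RPKM was 2.75 and 3.04 in Ctrl against 5.63 and 5.10 in MYCN KD, with 322, 334, 562 and 542 reads. Both MYCN KD values were above both Ctrl values by a ratio of means of 1.85 (log2 fold change 0.71, SE 0.0724, adjusted p = 0.00775). CHRFAM7A, a fusion gene that holds a near-identical copy of part of CHRNA7, was listed at RPKM 0.41 and 0.416 in Ctrl against 0.674 and 0.667 in MYCN KD. How reads matching both genes were assigned is not given in the sources used here, so the value of CHRNA7 is uncertain to that extent.

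CHRNB1 encodes the beta subunit of the muscle-type receptor. Its RPKM was 0.769 and 0.898 in Ctrl against 1.96 and 1.67 in MYCN KD, from 64 to 139 reads, and the groups did not overlap. CHRNB1 shares 630 bases, 14.5% of its exon length, with an unlisted noncoding gene on the same strand. Reads in those bases cannot be assigned to either gene. Both Ctrl values were below the filter of 1, so it was tested only through the MYCN KD samples. The log2 fold change was 0.62 (SE 0.0767, adjusted p = 0.0108) on the log2(RPKM + 1) scale and 1.12 (SE 0.137, adjusted p = 0.0111) with limma voom on reads. The other muscle-type subunits stayed low, with 10 to 20 reads per sample for CHRND, 3 to 6 for CHRNG and at most 2 for CHRNE and 1 for CHRNA1. The skeletal muscle markers summed to 0.733 and 0.7991 RPKM in Ctrl against 1.36 and 1.156 in MYCN KD, and 4 of the 10 were at 0 in all samples.

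Sympathetic neuroblast markers also moved with the groups, with 8 of 12 higher (66.7%, against 25.3% of all tested genes) and 1 lower (8.33%, against 22.8%) in MYCN KD. Their summed RPKM was 4372 and 4101 in Ctrl against 5749 and 6124 in MYCN KD. The Schwann and glial markers summed to 6.765 and 6.456 in Ctrl against 11.01 and 11.64 in MYCN KD, the mesenchymal markers to 205.3 and 214.3 against 283.4 and 272.7, and the blood and endothelial markers to 2.09 and 1.951 against 2.208 and 2.279. Of the tested markers, 2 of 4 mesenchymal and 2 of 2 Schwann and glial markers were higher, against the same 25.3% of all tested genes. The part of these marker changes in the changes of the receptor genes was not tested. A change in the number of cells of one kind and a change in RNA per cell cannot be told apart in bulk samples.

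CHRNA5, CHRNA3 and CHRNB4 are neighbours. On GRCh37, CHRNA5 lies on the plus strand at chr15:78857862-78887611, CHRNA3 on the minus strand at chr15:78885394-78913637, and CHRNB4 on the minus strand at chr15:78916453-79020096, with 2815 bases between CHRNA3 and CHRNB4. The exons of CHRNA3 and CHRNA5 overlap by 198 bases on opposite strands, which is 4.2% and 5.5% of their exon length. CHRNA5 also shares 832 bases, 23.0% of its exon length, with an unlisted noncoding gene on the opposite strand. Whether reads were counted by strand is not given in the sources used here, so reads in the shared bases cannot be assigned to a single gene. CHRNB2 is at chr1:154540254-154552489, CHRNA7 at chr15:32215641-32465219 and CHRNB1 at chr17:7348380-7361029, all on the plus strand.

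**Figure D4:**
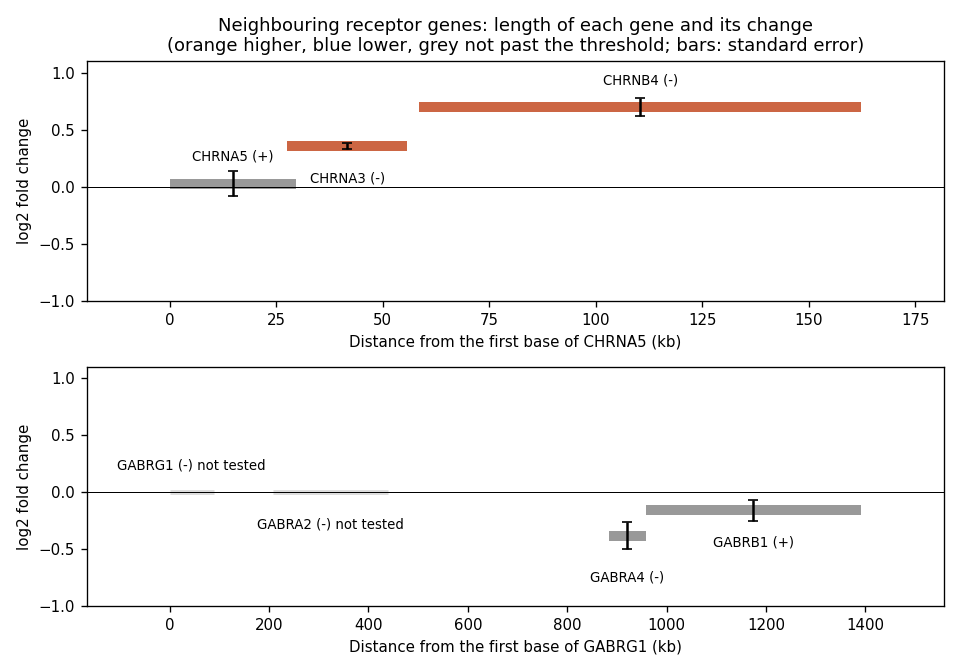
Extent of neighbouring receptor genes (distance from the first base of the group in kb, strand in brackets) and their log2 fold change, with black bars for the standard error. CHRNA3 and CHRNB4 are higher and CHRNA5 beside them is near 0, while GABRA4 and GABRB1 are both below 0 and not past the threshold.

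The remaining nicotinic genes were scarce. CHRNA10, a subunit of the receptor of cochlear hair cells, was listed at RPKM 0.146 and 0.187 in Ctrl against 0.240 and 0.193 in MYCN KD (10, 12, 14 and 12 reads). Part of its exons overlaps those of NUP98 on the same strand, by 133 bases. CHRND was listed at 0.148 and 0.106 in Ctrl against 0.163 and 0.218 in MYCN KD. Both MYCN KD values were above both Ctrl values for these 2 genes, but neither passed limma voom on reads (adjusted p = 0.208 and 0.148). CHRNA2, CHRNA6 and CHRNA9 had 1 to 9 reads per sample, CHRNA4 had 1 read in 1 sample, and CHRNB3 was at 0. CHRNG shares 66.9% of its exon length with TIGD1 and CHRNE 48.6% of it with C17orf107, both on the opposite strand, so their few reads are uncertain.

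No GABA-A receptor gene passed the test. GABRQ, which encodes the theta subunit, had RPKM 3.59 and 3.96 in Ctrl against 4.61 and 4.20 in MYCN KD. Its groups did not overlap, with a log2 fold change of 0.18 (SE 0.0703, adjusted p = 0.115).

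GABRA4 and GABRB1 encode an alpha and a beta subunit and lie head to head on chromosome 4, with 141 bases between them. GABRA4 had RPKM 3.48 and 4.22 in Ctrl against 2.99 and 2.48 in MYCN KD, without overlap (log2 fold change -0.38, SE 0.119, adjusted p = 0.0745). Its log2 fold change was -0.49 without Ctrl replicate 1 and -0.48 without MYCN KD replicate 1. It was -0.27 without Ctrl replicate 2 and -0.28 without MYCN KD replicate 2. GABRB1 had 2.44 and 2.87 in Ctrl against 2.44 and 2.09 in MYCN KD, with overlapping groups (log2 fold change -0.16, SE 0.0952, adjusted p = 0.239).

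GABRG3 and GABRG1 encode gamma subunits, which link GABA-A receptors to benzodiazepine binding and synaptic anchoring. GABRG3 was listed at RPKM 0.345 and 0.343 in Ctrl against 0.445 and 0.444 in MYCN KD, without overlap, and GABRG1 was at 0. Several alpha, beta, delta, epsilon, pi and rho genes were nearly silent. GABRA3 and GABRR2 had 1 to 5 reads per sample, GABRA2, GABRA5, GABRB2, GABRD, GABRP, GABRR1 and GABRR3 at most 2, and GABRA6 and GABRE were at 0.

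Both GABA-B subunit genes and all 5 glycine receptor genes were also close to silent. GABBR2 had 12 and 11 reads in Ctrl against 8 and 9 in MYCN KD, an RPKM of at most 0.0607, without overlap (voom adjusted p = 0.111). GABBR1, which carries the GABA binding site of the GABA-B receptor, had 3, 4, 2 and 1 reads, but it lies in a stretch of chromosome 6 where few reads were counted. Of the 38 listed coding genes within 1000 kb of it, 36 (94.7%) had a mean RPKM under 0.1, against 33.3% of all 18085 listed coding genes. The gene length recovered for GABBR1 was 4.24 times its annotated exon length. Low expression of GABBR1 and poor counting of this stretch cannot be told apart. GLRA1 had 1 read in each sample, and GLRA2, GLRA3, GLRA4 and GLRB had 1 read in 1 MYCN KD sample each.

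Among the kainate receptor genes, GRIK5 rose and GRIK2 and GRIK3 did not pass the test. GRIK5 encodes a subunit with high affinity for kainate that forms a channel only together with GRIK1, GRIK2 or GRIK3 proteins. Its RPKM was 2.13 and 2.08 in Ctrl against 3.91 and 4.01 in MYCN KD, with 313, 286, 489 and 533 reads. The groups did not overlap and the ratio of the means was 1.88 (log2 fold change 0.68, SE 0.0397, adjusted p = 0.00413). On GRCh37 the gene is at chr19:42502473-42574358 on the minus strand.

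GRIK3 had RPKM 7.48 and 6.8 in Ctrl against 7.46 and 8.19 in MYCN KD, with overlapping groups (log2 fold change 0.12, SE 0.0746, adjusted p = 0.268). GRIK2 had 5.22 and 5.6 in Ctrl against 5.14 and 4.81 in MYCN KD, with MYCN KD just below Ctrl (log2 fold change -0.10, SE 0.0583, adjusted p = 0.225). The ratio of GRIK5 to GRIK2 was 0.408 and 0.371 in Ctrl against 0.762 and 0.833 in MYCN KD. That of GRIK5 to GRIK3 moved less, from 0.285 and 0.306 in Ctrl to 0.524 and 0.489 in MYCN KD. For both ratios the exact permutation test again gave the smallest p of 0.3333. GRIK1 had 1 to 3 reads per sample.

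GRID1, which encodes a delta receptor, had RPKM 10.3 and 9.5 in Ctrl against 11.5 and 12.5 in MYCN KD. Its groups did not overlap, and it was just outside the threshold (log2 fold change 0.25, SE 0.0666, adjusted p = 0.0504) and just inside it with limma voom on reads (log2 fold change 0.28, adjusted p = 0.0498).

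The AMPA receptor genes had one well-measured member. GRIA4 had RPKM 4.00 and 4.71 in Ctrl against 3.49 and 2.99 in MYCN KD, without overlap (log2 fold change -0.34, SE 0.104, adjusted p = 0.0714). Its log2 fold change was -0.43 without Ctrl replicate 1 and -0.42 without MYCN KD replicate 1. It was -0.24 without Ctrl replicate 2 and -0.25 without MYCN KD replicate 2. GRIA1 had 0.574 and 0.618 in Ctrl against 0.583 and 0.542 in MYCN KD, with overlapping groups. GRIA2, whose product makes AMPA receptors impermeable to calcium, had 2 or 3 reads per sample, and GRIA3 had 1 read in 1 sample.

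Among the NMDA receptor genes, GRIN3A, which encodes a glycine-binding subunit, had RPKM 1.63 and 1.22 in Ctrl against 1.09 and 1.45 in MYCN KD. The groups overlapped (log2 fold change -0.09, SE 0.132, adjusted p = 0.589). GRIN1, the subunit that every NMDA receptor needs, was listed at only 0.362 and 0.394 in Ctrl against 0.271 and 0.254 in MYCN KD. GRIN2A had at most 2 reads, GRIN3B 1 to 5, and GRIN2B was at 0.

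Reads allowed 13 members with a mean RPKM under 1 to be tested with limma voom, since each had a mean of at least 10 reads. Among all 30 members then tested, 10 were higher, against a background of 26.1% of 14019 genes, and 2 were lower, against 20.0%. The members that this added on the higher side were GRIN2D, GRM7, GABRG3, GRIK4 and GRID1, and on the lower side GRIN1. GRID1 had an RPKM above 1, and the reads behind the other 5 were few. For these 5 the SE of the log2 fold change from voom was below the one that counting error alone gives. Examples are 0.099 against 0.4 for GRM7 and 0.0899 against 0.362 for GRIK4, so counting intervals are given beside each. Counting error was worked out only for the 13 members under a mean RPKM of 1. The voom SE of GRIK5 (0.0481, 286 to 533 reads per sample) and CHRNB1 (0.137, 64 to 139 reads) was not compared with it. For GRIK5 and CHRNB1 too, the SE and adjusted p may be too small.

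GRM7, which encodes a presynaptic metabotropic glutamate receptor of low affinity, had 9 and 9 reads in Ctrl against 23 and 24 in MYCN KD. Its Ctrl values were below the mean of 10 reads needed for the test, so it was tested only through the MYCN KD samples. It rose by 1.48 on the log2 scale (SE 0.099, voom adjusted p = 0.00522), and the ratio of summed reads scaled to the totals was 2.88 with a 95% counting interval from 1.64 to 5.26. GRIN2D, an NMDA receptor subunit typical of immature neurons, had 44 and 37 reads in Ctrl against 71 and 84 in MYCN KD. It rose by 1.07 on the log2 scale (SE 0.105, adjusted p = 0.00797) and its scaled ratio was 2.11, from 1.6 to 2.79. GRIN1 had 55 and 56 reads in Ctrl against 35 and 35 in MYCN KD, with a log2 fold change of -0.52 (SE 0.0909, adjusted p = 0.0225) and a scaled ratio of 0.695, from 0.508 to 0.946. For these 3 genes the counting interval did not include 1.

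The counting interval did include 1 for the other two. GABRG3 had 30 and 28 reads in Ctrl against 33 and 35 in MYCN KD (adjusted p = 0.0315), and its scaled ratio of 1.29 had an interval from 0.897 to 1.87. GRIK4, another high-affinity kainate subunit named here after its values were seen, had 15 and 14 reads in Ctrl against 17 and 18 in MYCN KD (adjusted p = 0.0367), and its scaled ratio of 1.33 ran from 0.79 to 2.26. A difference was thus not detectable for these 2 genes at this depth once counting error is counted.

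The other low members did not pass with limma voom. GRIN2C had 46 to 52 reads per sample, GRIA1 102 to 120, GRM2 17 to 31 and GRM8 12 to 16. GRM2 had 31 and 25 reads in Ctrl against 17 and 21 in MYCN KD, without overlap (adjusted p = 0.0905), and the RPKM values of the other 3 named here overlapped between the groups. Other metabotropic genes were nearly silent, with 1 to 4 reads per sample for GRM4, 1 for GRM6, 1 read in 1 sample for GRM3, and GRM5 at 0.

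**Figure D5:**
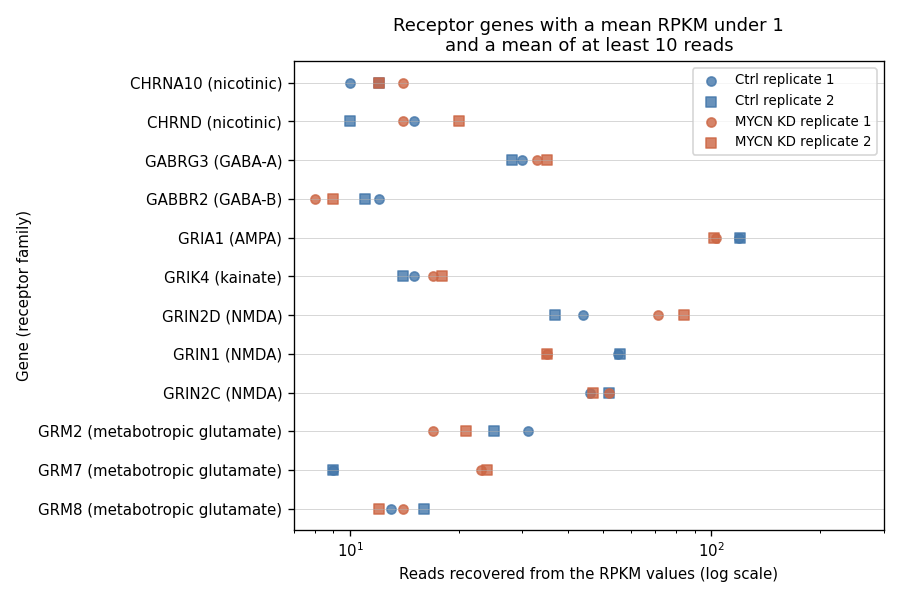
Reads (log axis) of the receptor subunit genes reported here with a mean RPKM under 1 and a mean of at least 10 reads, 1 point per sample, with inferred totals of 29055819 to 34142988 reads. GRM7 and GRIN2D lie higher in both MYCN KD samples, at 23 and 24 against 9 and 9 reads and at 71 and 84 against 44 and 37, and GRIN1 lies lower, at 35 and 35 against 55 and 56.

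The genes that work with the receptors were followed in 6 lists, each read against the 25.3% of all tested genes that were higher and the 22.8% that were lower. Of the 17 nicotinic chaperones and regulators, 3 were tested, 1 was higher and 1 lower, too few for a share to be read. AGRN, the organizer of the neuromuscular junction, rose from RPKM 0.891 and 0.808 to 1.71 and 1.88 (log2 fold change 0.60, adjusted p = 0.00643). Both of its Ctrl values were below 1, so it was tested, and entered the count and median of this list, only through the MYCN KD samples. LY6E, of the same protein family as nicotinic modulators, fell from 124 and 114 to 89.8 and 97.5 (log2 fold change -0.34, adjusted p = 0.0307). The median log2 fold change was 0.36 over the 3 tested genes, against 0.03 over all tested genes.

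Of 24 partners of GABA-A, GABA-B and glycine receptors, 16 were tested, 3 were higher and 2 were lower, with a median log2 fold change of 0.11. These shares of 18.8% and 12.5% were below those of all tested genes, 25.3% and 22.8%. GPHN, the gephyrin scaffold of inhibitory synapses, fell from RPKM 12.6 and 14.0 to 9.71 and 8.78 (log2 fold change -0.48, adjusted p = 0.0201). LHFPL4, which anchors GABA-A receptors, fell with a log2 fold change of -0.36 (adjusted p = 0.0118). TRAK2 and NLGN2 were among the higher genes, with log2 fold changes of 0.71 and 0.32.

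Of 29 auxiliary subunits of AMPA, kainate and delta receptors, 10 were tested, 2 were higher and 2 were lower, with a median of 0.22. These shares of 20.0% each were near the background of 25.3% and 22.8%. NETO2, an auxiliary subunit of kainate receptors, fell from RPKM 23.6 and 25.8 to 12.7 and 11.7 (log2 fold change -0.96, adjusted p = 0.00489). CBLN1, the secreted ligand of delta receptors, fell from 5.45 and 5.73 to 2.71 and 2.6 (log2 fold change -0.85, adjusted p = 0.0039). CACNG4, an auxiliary subunit of AMPA receptors, rose from 33.8 and 31.9 to 50.6 and 53.6 (log2 fold change 0.65, adjusted p = 0.00587). CPT1C, which binds AMPA receptors in the endoplasmic reticulum, rose with a log2 fold change of 0.80 (adjusted p = 0.00472).

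Of 23 glutamate receptor scaffolds, 13 were tested, 3 were higher and 1 was lower, with a median of 0.15. The share of 23.1% higher was near the background of 25.3%, and that of 7.69% lower was below 22.8%. SHANK1, a postsynaptic scaffold, fell from RPKM 8.57 and 7.7 to 4.29 and 4.77 (log2 fold change -0.72, adjusted p = 0.00883). LIN7B, DLGAP4 and DLG4, the gene of the scaffold PSD-95, rose with log2 fold changes of 0.51, 0.47 and 0.32.

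Of 29 genes of transmitter synthesis, breakdown and transport, 9 were tested, 2 were higher and 3 were lower, with a median of -0.17. These shares were 22.2% against a background of 25.3% and 33.3% against 22.8%. SLC18A3, the vesicular acetylcholine transporter, rose from RPKM 26.3 and 26.2 to 58.8 and 58.8 (log2 fold change 1.13, adjusted p = 0.00359). Both enzymes of GABA breakdown were called in opposite directions, with a log2 fold change of 0.86 for ABAT and -0.90 for ALDH5A1. GLUL, glutamine synthetase, fell with a log2 fold change of -0.59 and SLC6A9, a glycine transporter, with one of -0.27. The glutamate decarboxylase genes GAD1 and GAD2 were among the 20 genes below the level tested.

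Of 11 other receptors for these transmitters and other receptors of the nicotinic superfamily, 3 were tested and 2 were higher, against 25.3% of all tested genes, with a median of 0.60. CHRM1, a muscarinic acetylcholine receptor, rose from RPKM 8.01 and 6.34 to 21.4 and 26.8 (log2 fold change 1.62, SE 0.17, adjusted p = 0.00782). HTR3A, the channel subunit for serotonin in the same superfamily, rose from 2.09 and 2.44 to 4.24 and 3.65 (log2 fold change 0.60, adjusted p = 0.0176).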

How the data were processed

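Reads were mapped by the authors to hg19 with HISAT2 (2.1.0 per the submitters' notes) and counted on RefSeq genes with featureCounts. The authors put the matrix into DESeq2 and then took out unwanted variation by means of RUVSeq. RPKM values made from the adjusted reads were deposited, 1 file per sample. The number of factors removed is not given in the sources used here, and no p-value in the text allows for that removal, so p-values may be too small.

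The 68 members and the gene lists were chosen with earlier results of these data known. A linear model was fitted to log2(RPKM + 1) without a block, using lmFit and trended eBayes of limma 3.58.1 under R 4.3.3, on 11411 genes whose mean RPKM was 1 or more. Adjustment followed Benjamini-Hochberg over all tested genes, with a threshold of 0.05. At the inferred totals, 62.44% to 65.64% of the small RNA genes above 0 in a sample gave whole reads with their annotated length. Whole reads were recovered from the RPKM values for all 19908 genes above 0 (100.0%, tolerance 0.001). The length used was the shortest that made the values of a gene whole, so a match is weak support for genes above 0 in few samples. The recovered numbers are reads after RUVSeq, and for the lowest genes they are the smallest whole numbers that give the values. Those with a mean of at least 10 reads (14019 genes) were tested with limma voom. The script was also run on simulated data with independent samples, which cannot show how the removal of unwanted variation acts on p-values. Counting intervals are exact binomial at 95% and cover counting error only. Gene positions came from GENCODE on GRCh37 and promoter windows from RefSeq on GRCh38.p14, which held 48 members.

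Some genes are included in the counts and sums but not reported here by name or in the figures. All other members with a mean RPKM at or above 1 were named with each value, those from 0.1 with values or a range, the others by family, and from each partner list up to 3 called genes with the largest rise and up to 3 with the largest fall. Alternatives were another pseudocount, other filters, 2 other scalings, no trend, voom, the replicate block and each sample left out. A crossed block and the counting intervals were added after seeing the data. Further tools were matplotlib 3.10.9, scipy 1.17.1, pandas 2.3.3 and numpy 2.4.6 under Python 3.11.15.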

Additional observations from a re-analysis of the deposited data

How the results depend on the processing

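With 2 samples per group, few reads on most members and values adjusted before deposit, the data limit precision, and depth limits every member under a mean RPKM of 1. The 6 members called in the main fit, on log2(RPKM + 1), kept their call in every alternative with all 4 samples where they were tested. Each kept its direction with a sample left out. Of the members that voom added, GRIK4 was not called without a filter. GABRG3 was not called with a pseudocount of 0.1 and a minimum mean RPKM of 0.1 (limma adjusted p = 0.0535). GRIN2D, GRM7 and GRIN1 were called in both of those fits. Of 202 alternative values of single members reported here, 186 kept direction and side of the threshold, 12 gained a call and 4 turned direction. The count of higher members, 5, became 8 without a filter (12.9% against 17% of all genes), 8 with a minimum mean RPKM of 0.1 (28.6% against 23.4%), 10 with voom (33.3% against 26.1%) and 3 with a minimum mean RPKM of 5 (37.5% against 23.8%), where 8 members were tested. Among fits on all 4 samples, the crossed block aside, the count of lower members, 1, moved as follows. It became 2 without a filter (3.23% against 13.0%) and with a minimum mean RPKM of 0.1 (7.14% against 18.3%). It was also 2 with that filter and a pseudocount of 0.1 (7.14% against 18.5%) and with voom (6.67% against 20.0%). With quantile normalization it was 5 (29.4% against 26.2%). Each fit with a sample left out assumed that the lone sample of a group varied like the other group. Effect sizes are therefore given for those fits in place of the count of lower members, which also moved in some of them. The log2 fold change ran from -0.43 to -0.24 for GRIA4 and from -0.49 to -0.27 for GABRA4. For both it was largest without Ctrl replicate 1 and smallest without Ctrl replicate 2. With quantile normalization GRIA4 (adjusted p = 0.0139), GABRA4 (0.0171), GABRB1 (0.0395) and GRIK2 (0.0372) were called lower. GRID1 was called higher with the same total for every sample (0.0232), with a minimum mean RPKM of 5 (0.0463), without a trend (0.049) and with voom (0.0498). Over all genes, the count of higher genes fell from 2890 to 1868 with a minimum mean RPKM of 5, where fewer genes were tested. The same total moved the median of all tested genes from 0.03 to 0.08. The log2 fold change turned direction with 1 sample left out for GRIN3A and CHRNA5, where it ran from -0.22 to 0.03 for GRIN3A and from -0.07 to 0.13 for CHRNA5. Neither gene was called in the report. The cause of these moves was not tested.

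The labels do not say whether a replicate number marks a shared culture or day. Deviations of same-numbered samples from their group means had a correlation of -0.98 over 11411 genes. The fit with the replicate block called 2077 genes higher and 1851 lower (18.2% and 16.2%), with 5 higher and 1 lower member (29.4% and 5.88%). The crossed block, pairing each Ctrl sample with the other number, called 5910 genes higher and 5262 lower, 51.8% and 46.1% of all tested genes. It called 10 members higher and 7 lower, 58.8% and 41.2% of those tested. The median residual SD fell from 0.0765 without a block to 0.00197 with the crossed block. That fit called nearly every gene, so its calls single out no member.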
